A study of Mus musculus with 29 samples.

Results

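In mouse liver, 546 genomic regions were listed as bound by the glucocorticoid receptor (GR) in every wild-type peak list and in no list of the dimerization mutant GRdim. They were found by merging the peaks of the 6 GR ChIP-seq lists that overlapped by at least 1 bp, which gave 15329 regions. Of these, 3159 held a peak in all 3 WT lists, and 17.3% of the 3159 (the 546) held none from a GRdim list. They are called WT-only regions here, a name that speaks of the peak lists alone. The other regions of all 3 WT lists were the 1545 shared regions, with a peak in all 6 lists, and the 1068 intermediate regions, with a peak in 1 or 2 GRdim lists.

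GR is a nuclear receptor that enters the nucleus when it binds glucocorticoid hormone. On DNA it can sit as a dimer on a palindromic response element, each subunit reading one arm of the palindrome, and it also binds single arms and sites next to other factors. The GRdim allele carries a point mutation in the dimer interface of the DNA-binding domain. C/EBPβ is a basic leucine zipper factor of hepatocytes that shares many liver enhancers with GR.

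The livers came from male mice of 12 weeks, back-crossed to BALB/c, either GRdim or GR+/+ litter-mates (WT), kept in a cycle of 12 h light and 12 h dark. Untreated mice gave tissue at 6am, as the light phase began, and at 6pm, as the dark phase began. A further set carried subcutaneous prednisolone pellets, a synthetic glucocorticoid, at 12 mg/kg for 24 h and gave tissue at 6am. Whole liver was taken, so the lists cover all its cell types, and the mutation was inherited and not restricted to one of them. Both genotypes were mapped for GR, with ChIP-seq and with ChIP-exo; C/EBPβ was mapped in WT livers alone. Every deposited list pooled 2 replicates, so no value below has a spread between animals, and no test between conditions was possible. The 95% intervals (Wilson for a share, Newcombe for a difference of shares) cover the counting of regions only, and regions are not replicates of a condition. ChIP-exo trims the precipitated DNA with an exonuclease up to the crosslinked protein, which leaves a border on each strand. The 6 border lists held 14391 to 66573 borders of 10 bp each from libraries of 31.6 to 55.7 M tags, the GRdim 6am library being the smallest in both respects.

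The regions were chosen by the presence of a GR peak in the WT lists and its absence from the GRdim lists, so their GR scores are a description. In the WT 6am list the scores of the 546 ran from 2.02 through a median of 3.20 to 12.56, where the list of 5781 peaks had a median of 2.89. In the WT 6pm list they ran from 2.01 through 4.97 to 15.71, against a median of 3.36 over 14270 peaks. In the WT prednisolone list they ran from 2.03 through 3.60 to 16.17, against a median of 2.93 over 4304 peaks. The higher-scoring 50% of each list held 59.7%, 85.0% and 65.8% of them in that order. At the very top of the untreated lists they were rare: the 100 highest peaks held 1 of them in the 6am list and 0 in the 6pm list. The prednisolone list had 11 there, near the part that 546 regions make up of its 4304 peaks. Shared regions numbered 78, 88 and 60 among the 100 highest peaks, and intermediate regions 21, 12 and 27. The shared regions had medians of 4.07, 7.38 and 3.27, so the WT-only median was the lower one in both untreated lists and the higher one after prednisolone. The unit of the score was not given in the sources used here, and scores are compared only within a list.

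The edge of the rule is narrow. On the inside, the chromosome 10 region 8637283 to 8637499 scored 2.02, 2.01 and 2.66 in the WT 6am, 6pm and prednisolone lists, with no listed GRdim border in any library. Just outside, the chromosome 10 region 111256894 to 111257150 scored 2.82, 8.88 and 3.75 in WT and was left out for a single GRdim 6pm peak with a score of 2.00. The region just outside on chromosome 13 (51185709 to 51185950) also owed its place to a GRdim 6pm score of 2.00. A GRdim peak centre lay within 500 bp of 17 of the WT-only regions (3.11%) and more than 100 kb away from 141 (25.8%), with a median distance of 23885 bp. The regions were 201 to 377 bp wide, with a median of 217 bp. The 3 WT peak centres lay within 20 bp of each other in 351 regions (64.3%).

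Borders were listed at nearly all of these regions in WT and at few of them in GRdim, in libraries that played no part in choosing them. A WT border lay inside 98.9% of the WT-only regions at 6am (background over all regions of the 3 WT lists, 99.5%), 96.7% at 6pm (98.2%) and 95.1% after prednisolone (96.4%). In GRdim the share was 8.79% at 6am (background 62.7%), 25.5% at 6pm (80.9%) and 22.2% after prednisolone (79.7%). The shared regions had a GRdim border in 88.8%, 98.3% and 99.0%. The difference from the shared regions was -80.0 percentage points at 6am (interval -82.6 to -76.9), -72.8 at 6pm (-76.3 to -68.9) and -76.9 after prednisolone (-80.2 to -73.1). Intermediate regions lay between, at 52.5%, 84.2% and 81.1%. No GRdim library listed a border in 331 of the 546 (60.6%, against 0.0647% of the shared regions), and 137, 63 and 15 had one in 1, 2 or 3 libraries. In WT, 496 had borders in all 3 libraries.

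**Figure D1:**
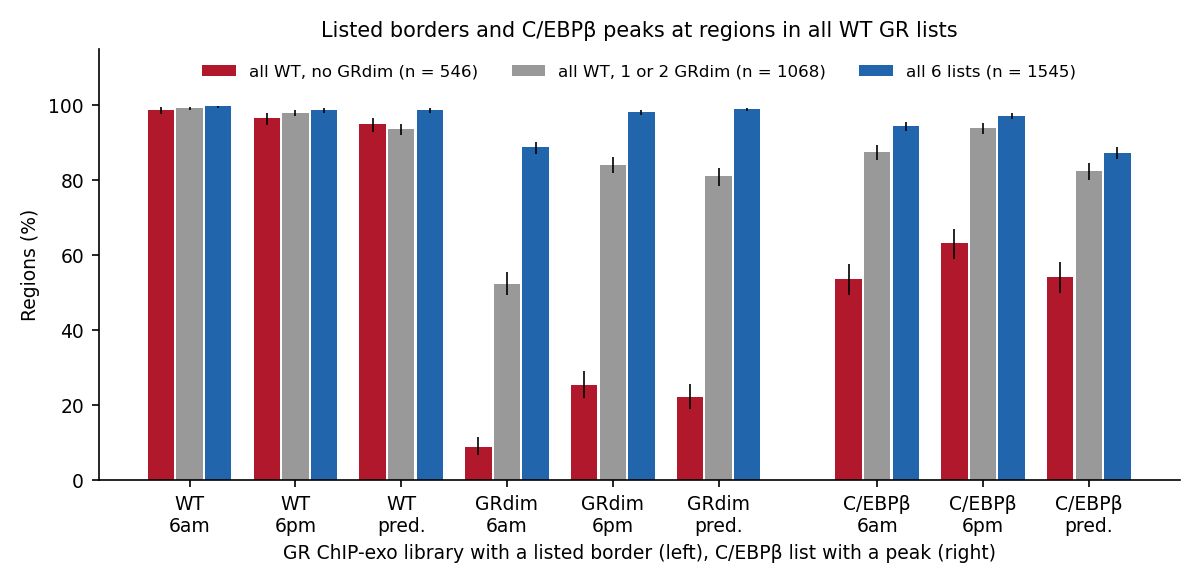
Bars give the percentage of regions with a listed GR ChIP-exo border in each of 6 libraries (left) and with a C/EBPβ peak in each of 3 lists (right), for 546 WT-only, 1068 intermediate and 1545 shared regions; lines are 95% Wilson intervals over regions. The red WT-only bars stand level with the others in WT, drop to between 8.79% and 25.5% in GRdim, and reach 53.7% to 63.2% for C/EBPβ.

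Because the GRdim lists were shorter, the comparison was repeated with every border list cut to the length of the shortest by RPM, the tag count of a border scaled to the size of its library. The GRdim shares of the WT-only regions were then 8.79%, 6.59% and 6.23%, and the WT shares 82.4%, 74.0% and 80.6%. Demanding borders of both strands gave GRdim shares of 2.20%, 5.86% and 6.04% and WT shares of 93.8%, 84.1% and 85.2%. Between genotypes the gap was therefore present in each pair of lists at equal length. A missing border means that none was listed, since the threshold of the border lists was not given in the sources used here.

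Where GRdim borders were listed in WT-only regions, they were weak. The signal of a region is given as the RPM of its strongest plus-strand and strongest minus-strand borders within 100 bp of the WT peak centre, added together. In WT the median was 1.18 RPM at 6am, 1.67 at 6pm and 1.45 after prednisolone, or 65.5, 72.0 and 79.0 tags. In GRdim it was 0.379 over 48 regions, 0.251 over 137 and 0.244 over 119, or 12, 11 and 11 tags. Only 12 of these 48, 32 of 137 and 31 of 119 had borders of both strands, against 509 of 540, 457 of 528 and 463 of 519 in WT. Most GRdim signals were thus the RPM of 1 border set against the sum of 2, which also enters the ratios below. Shared regions had GRdim medians of 0.790, 0.890 and 0.753. Among WT-only regions with a signal in both genotypes, WT was at least 2 times GRdim in 64.6% of 48 at 6am (background 31.2%), 90.3% of 134 at 6pm (56.0%) and 73.3% of 116 after prednisolone (27.8%). Those regions entered only because GRdim had a listed border, which leaves out the ones with none. Of the GRdim borders inside WT-only regions, 32 of 80 at 6am (40%) lay within 2 bp of a WT border of the same strand and condition, 36.3% of 234 at 6pm and 30.9% of 207 after prednisolone. The same shares in shared regions were 38.8%, 27.8% and 25.5%.

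The distance between the borders of the 2 strands can read the length of the protected DNA where the minus-strand border lies to the right. It was taken from the strongest plus-strand to the strongest minus-strand border. Pairs in the opposite order, which give no such length, were 24 of 509 WT-only and 243 of 1479 shared pairs at 6am. They were 18 of 457 and 139 of 1391 at 6pm, and 22 of 463 and 245 of 1331 after prednisolone. These pairs stayed in the totals of all shares below. In all 3 WT libraries the WT-only regions piled up at 2 distances, one near 11 bp and one near 30 bp. Pairs 29 to 31 bp apart made up 25.7% of 509 pairs at 6am (background 12.1%), 18.2% of 457 at 6pm (9.15%) and 24.2% of 463 after prednisolone (11.8%). The shared regions had 7.64%, 5.82% and 6.54%, and the difference was 18.1 points (14.2 to 22.3), 12.3 points (8.80 to 16.3) and 17.7 points (13.7 to 21.9). The intermediate regions lay between, at 11.7%, 9.73% and 13.4%. The commonest distance above 15 bp at WT-only regions was 30, 30 and 31 bp. It was 31, 31 and 30 bp at shared and 30, 31 and 31 bp at intermediate regions. Up to 15 bp the commonest distance was 11 bp in every set and library, except 13 bp at shared regions at 6pm. The sets thus differed in the share of pairs at these distances more than in the distances. An average window of 3 bp between 40 and 60 bp held 1.12%, 2.28% and 1.57% of the WT-only pairs.

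**Figure D2:**
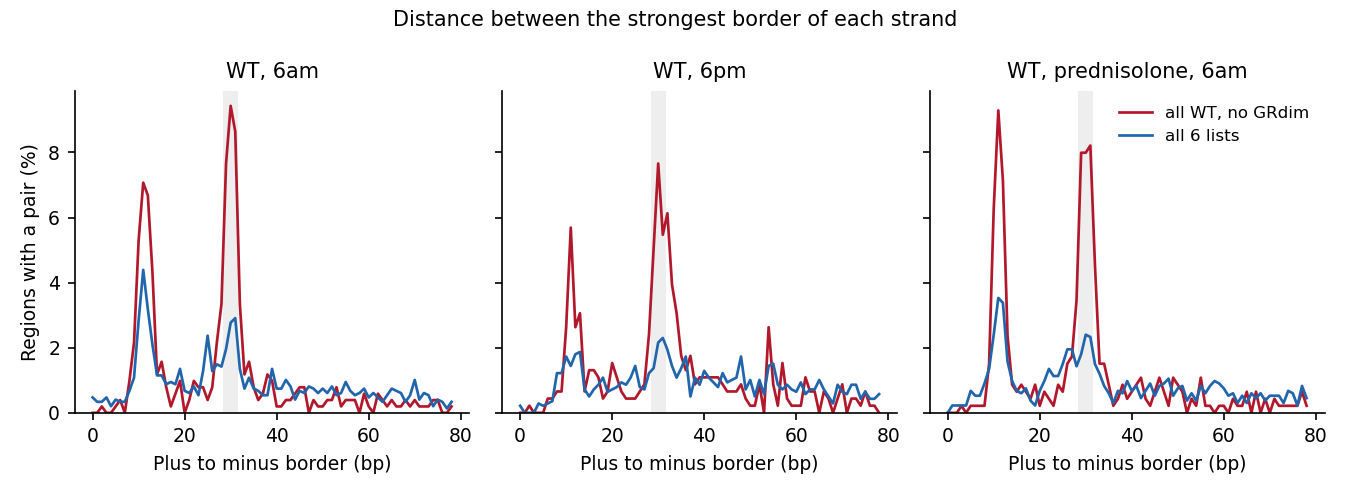
Lines give the percentage of pairs at each distance from the strongest plus-strand to the strongest minus-strand border (bp), for WT-only (red) and shared (blue) regions in the 3 WT ChIP-exo libraries; grey marks 29 to 31 bp. The red peak near 30 bp stands above the blue one in each panel, and a second red peak stands at 11 bp.

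Pairs 10 to 12 bp apart made up 19.1%, 10.9% and 22.7% of the WT-only pairs at 6am, at 6pm and after prednisolone (background 13.0%, 6.75% and 13.1%). The difference from the shared regions was 8.64 points (5.06 to 12.6), 5.98 points (3.14 to 9.33) and 13.4 points (9.41 to 17.6). Pairs 24 to 26 bp apart went the other way, at 1.96%, 1.53% and 3.02% (background 4.03%, 2.74% and 3.95%). That difference was -2.97 points (-4.49 to -1.08) at 6am, while the intervals at 6pm (-3.11 to 0.0183) and after prednisolone (-3.31 to 0.665) included 0.

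Shared regions held more borders, a median of 10 against 6 in the WT 6am library, 8 against 5 at 6pm and 7 against 6 after prednisolone; the part of this in the spacing was not tested. Counting a region when any of its plus and minus borders were 29 to 31 bp apart gave 43.6%, 28.2% and 41.9% of the WT-only regions. The difference from the shared regions was then 7.54 points (2.77 to 12.3) at 6am, 0.891 points (-3.38 to 5.37) at 6pm and 19.4 points (14.7 to 24.0) after prednisolone. By this looser count no difference was shown at 6pm. At a distance of 39 to 41 bp the looser count gave a difference of -13.6 points at 6am (18.5% against 32.1%), -10.9 at 6pm and 0.653 after prednisolone (-3.12 to 4.71).

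The spacing recurred at the same regions. A 29 to 31 bp pair of strongest borders was found in at least 1 WT library at 199 WT-only regions (36.4%), against 12.5% of the shared regions. It was found in 2 or 3 libraries at 96 (17.6%), against 3.95%, and in all 3 at 31. The 112 WT-only pairs of the prednisolone library were then read in the 5 others, asking for a border of the same strand within 2 bp. Both borders were listed in WT 6am at 83.0% (75 to 88.9) and in WT 6pm at 65.2% (56.0 to 73.4). The 87 such pairs of shared regions had 72.4% (62.2 to 80.7) and 63.2% (52.7 to 72.6), intervals that overlapped those above. Overlap is no test of a difference. When WT 6am pairs were read in WT prednisolone, the WT-only share was above the shared one, 84.7% (77.6 to 89.9) against 64.6% (55.4 to 72.8). Read in WT 6pm, those 6am pairs gave 66.4% against 68.1%, the reverse order. WT 6pm pairs gave 83.1% against 65.4% in WT 6am and 75.9% against 59.3% in WT prednisolone, each with overlapping intervals. For the 112 prednisolone pairs, GRdim listed both borders at 0 of 112 at 6am, 1 of 112 at 6pm and 0 of 112 after prednisolone. At least 1 of the 2 borders was listed at 0.893%, 10.7% and 1.79%. At the 87 shared pairs, GRdim listed both borders in 8.05%, 34.5% and 13.8%. WT-only regions were chosen for having no GRdim peak and shared regions for having one, so these GRdim counts cannot speak of the spacing. GRdim listed borders of both strands, at any distance, in only 2.20%, 5.86% and 6.04% of all WT-only regions.

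**Figure D3:**
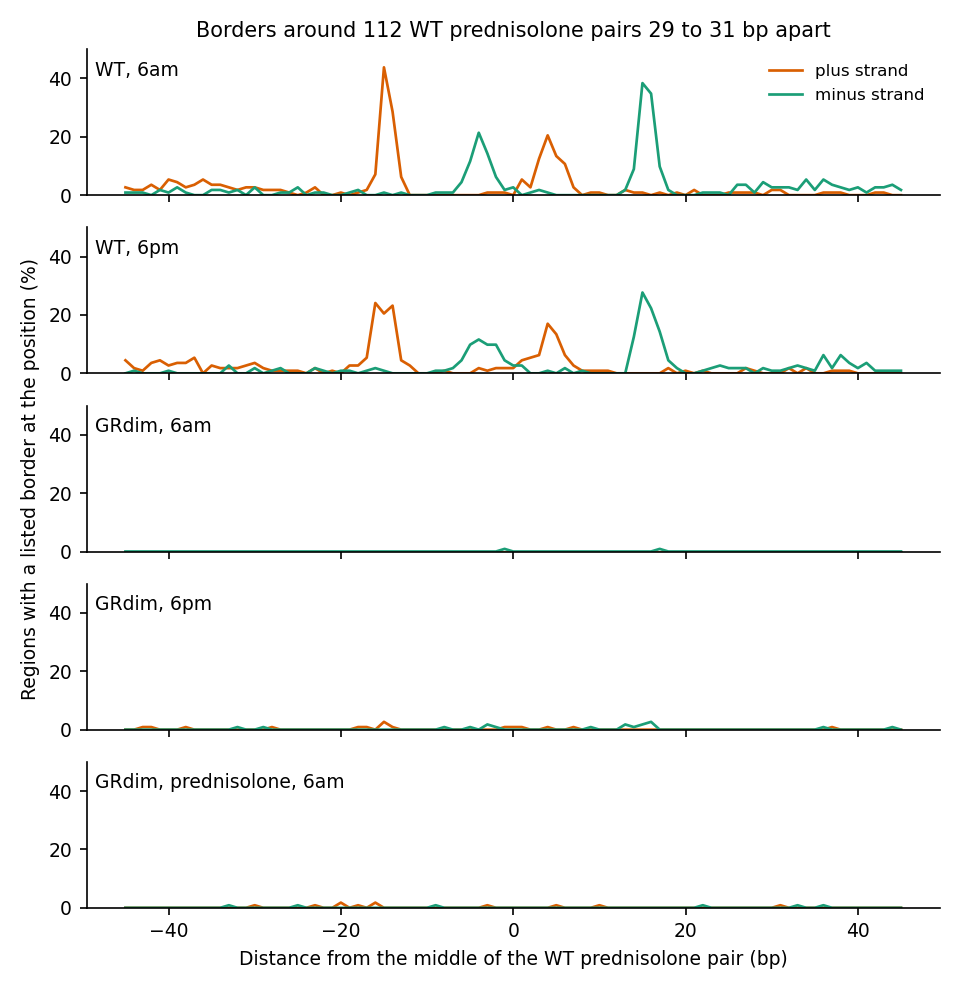
Each panel gives, for 1 library, the percentage of the 112 WT-only regions with a listed border centred at each distance (bp) from the middle of the WT prednisolone pair, plus strand in orange and minus strand in green. The WT panels peak at outer positions 14 to 16 bp to either side and at inner positions 4 bp to either side. The GRdim panels stay near 0, at regions that were chosen for having no GRdim peak.

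Taken over all 112 regions, positions 11 bp and 30 bp apart lay around the same middle. In the WT 6am library a plus-strand border lay 15 bp left of the middle of the prednisolone pair at 43.8% of the 112 regions, and a minus-strand border 15 bp right of it at 38.4%. Inside them, a minus-strand border lay 4 bp left of the middle at 21.4% and a plus-strand border 4 bp right of it at 20.5%. Each inner position was 11 bp from the outer position of the other strand. These are shares for each position alone and do not show both borders in the same region. The WT-only regions whose strongest pair was 10 to 12 bp apart after prednisolone often had a further border 29 to 31 bp from the opposite one. This was so at 53.3% of 105 (43.8 to 62.6), where 17.1% had one at 39 to 41 bp and 2.86% at 19 to 21 bp. At 6am the share was 38.1% of 97, with 13.4% at 39 to 41 bp. At 6pm it was 22.0% of 50 (12.8 to 35.2), with 10.0% (4.35 to 21.4) at 39 to 41 bp, so these 6pm intervals overlapped. The shared regions had 31.5% of 124 after prednisolone, 29.2% of 154 at 6am and 27.5% of 69 at 6pm.

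GRdim gave too few pairs at WT-only regions to describe a distribution: 12 at 6am, 32 at 6pm and 31 after prednisolone. Of these, 0, 0 and 1 were 29 to 31 bp apart. Pairs 10 to 12 bp apart numbered 1, 2 and 8, and their difference from shared regions was 2.31 points at 6am (-4.75 to 29.4), 1.78 at 6pm (-2.90 to 15.7) and 19.6 after prednisolone (7.44 to 37.1).

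C/EBPβ peaks were less frequent at WT-only regions than at the others. At 6am 53.7% overlapped a C/EBPβ peak (background 85.1%), at 6pm 63.2% (90.3%) and after prednisolone 54.2% (80.0%). The shared regions had 94.4%, 97.3% and 87.4%, a difference of -40.8 points (-45.1 to -36.4), -34.2 (-38.3 to -30.1) and -33.2 (-37.7 to -28.7). All 3 C/EBPβ lists had a peak at 245 of the 546 (44.9%, against 86.9% of the shared regions), and none had one at 167 (30.6%, against 2.14% of the shared regions). Where there was a peak its median score was 4.14, 4.20 and 4.36, above the whole-list medians of 3.62, 3.71 and 3.63 and below the 7.31, 8.25 and 6.75 of shared regions. The C/EBPβ centre lay a median of 28, 25 and 28 bp from the GR centre, and within 50 bp in 72.7%, 73.9% and 69.6% of these regions.

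The C/EBPβ lists also differed between conditions at these regions. From 6am to 6pm, when the list grew from 21644 to 26226 peaks, 62 of the 253 WT-only regions without a 6am peak gained one (24.5%) and 10 of 293 lost theirs (3.41%). The shared regions gained in 60.5% of 86 and the intermediate regions in 56.1% of 132. From 6am to prednisolone, with lists of 21644 and 21941 peaks, 48 of 253 WT-only regions gained a peak (19%), against 22.7% of the intermediate regions and 9.30% of the shared regions. The WT-only regions lost 45 of 293 peaks (15.4%), the intermediate regions 9.19% and the shared regions 7.95%. Their 6am C/EBPβ peaks had median scores of 4.14, 6.35 and 7.31 in that order, in a list that began at 2.01. The part of these scores in the losses was not tested. Of the WT-only regions, 24 (4.40%) had a peak in the prednisolone list and in neither untreated list. The share was 0.562% of the intermediate and 0.0647% of the shared regions. No C/EBPβ list held a peak at 30.6% of the WT-only, 4.87% of the intermediate and 2.14% of the shared regions. The sets thus also differed in how many regions could gain one.

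Spacing and C/EBPβ were read together. The 96 WT-only regions with a 29 to 31 bp pair in at least 2 WT libraries had a C/EBPβ peak at 41.7%, 54.2% and 47.9%, and the 347 with no such pair at 58.2%, 67.1% and 55.9%. The difference was -16.5 points at 6am (interval -27.2 to -5.25), -13.0 at 6pm (-24.0 to -2.09) and -7.99 after prednisolone (-19.0 to 3.20), the last including 0. Among regions that had a C/EBPβ peak, 29 to 31 bp pairs were still more frequent at WT-only than at shared regions, by 13.4 points at 6am (interval 8.71 to 18.8), by 11.3 at 6pm (7.19 to 16.1) and, after prednisolone, by 16.8 (11.7 to 22.5). Among regions with none the difference was 21 points (10.8 to 28.8), 3.83 (-16.1 to 16.0, over only 24 shared pairs) and 13.7 (5.55 to 21.2).

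GR scores differed between the sets, so both measures were read within bands of the WT prednisolone score. Pairs 29 to 31 bp apart went from 9.21% of the WT-only pairs in the band under 2.5 to 36.5% at scores of 6 or more. The shared regions stayed between 2.27% and 4.18% up to a score of 6 and reached 22.7% above it. In every band the interval of the difference excluded 0, from 6.94 points (1.42 to 15.6) in the lowest to 25.3 points (17.8 to 33.6) at 4 to 6. C/EBPβ peaks were less frequent at WT-only regions in every prednisolone band, with differences from -23.8 points at scores of 6 or more to -44.6 points at 3 to 4. In the 6am list the spacing difference at scores of 6 or more was 7.61 points (-3.27 to 20.7), an interval that included 0. In the 6pm list the spacing could not be compared at scores under 2.5, with 0 shared pairs, and the intervals from 2.5 to 4 included 0, with 3 and 28 shared pairs in the bands. The 6pm C/EBPβ intervals at scores under 3 also included 0, with 8 shared regions in each band.

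**Figure D4:**
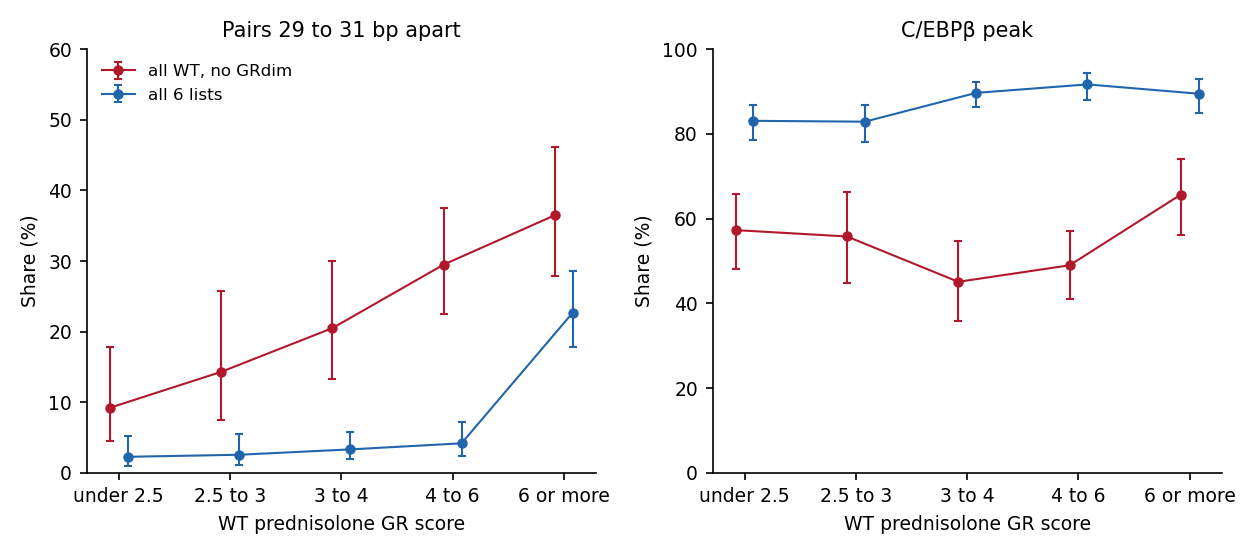
Points give the share of border pairs 29 to 31 bp apart in the WT prednisolone ChIP-exo library (left) and of regions with a C/EBPβ peak after prednisolone (right), by band of WT prednisolone GR score, with 95% Wilson intervals over regions. WT-only regions (red) lie above shared regions (blue) on the left and below them on the right in every band.

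The WT border signal was higher after prednisolone than at untreated 6am at more of the WT-only than of the shared regions. The ratio of prednisolone to 6am RPM had a median of 1.20 over 514 WT-only regions, and 64.2% were above 1 (background 45.3%). In 20.4% the prednisolone signal was at least 2 times the 6am signal (background 8.02%), against 4.10% of the shared regions, a difference of 16.3 points (12.9 to 20.1). The shared and intermediate regions had medians of 0.929 and 0.900. From 6am to 6pm the order was the reverse: the median ratio was 1.37 at WT-only and 1.78 at shared regions. At 6pm 23.6% of WT-only regions reached at least 2 times the 6am signal (background 36.0%), a difference from shared regions of -14.1 points (-18.3 to -9.55). Directly set against 6pm, the prednisolone signal had a median ratio of 0.944 at WT-only and 0.525 at shared regions. Each condition is 1 pooled library, so whether the ratios exceed the spread between animals cannot be told.

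**Figure D5:**
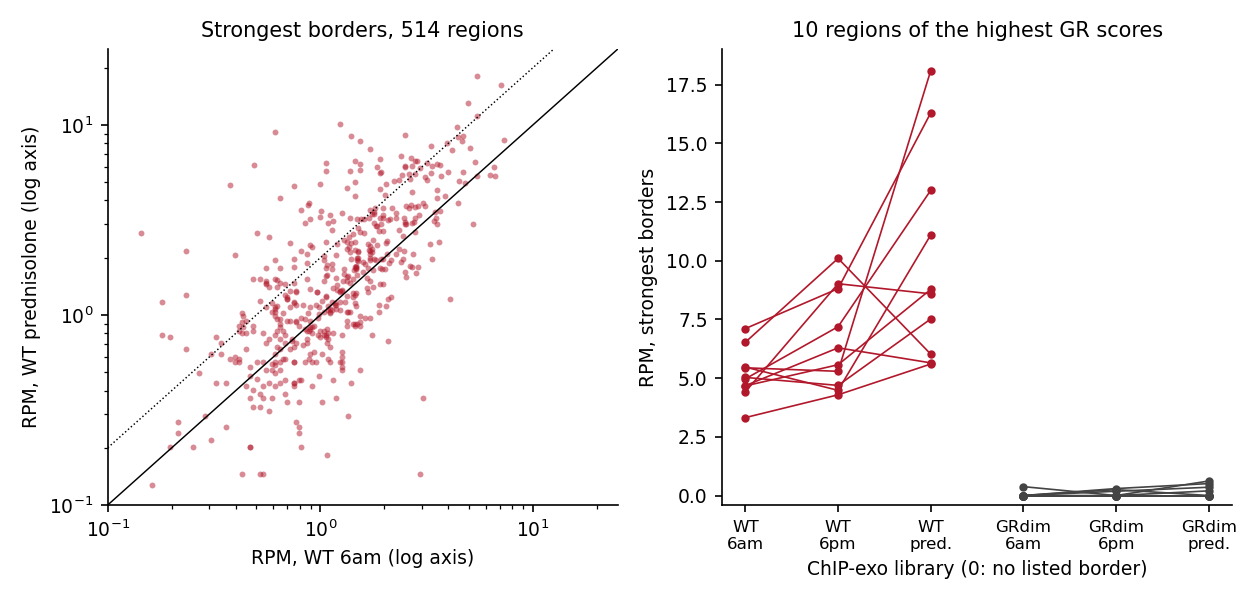
Left, each point is 1 of 514 WT-only regions, with the RPM of its strongest borders in the WT 6am and WT prednisolone libraries on log axes; the solid line marks equal values and the dotted line 2 times. Right, the same RPM in all 6 libraries for the 10 regions of highest GR score, from 3.32 to 18.1 in WT and 0 (no listed border) to 0.620 in GRdim.

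The regions with the highest GR scores were also read singly, and they varied in spacing and in C/EBPβ. They were ranked by the lowest of their 3 WT scores. The first, on chromosome 17 (81784937 to 81785141), had scores of 12.56, 15.71 and 11.71 in the WT 6am, 6pm and prednisolone lists. Its borders gave 6.53, 10.1 and 6.02 RPM in WT, no GRdim library listed a border there, and C/EBPβ scored 9.61, 9.84 and 6.61 with centres at most 6 bp away. Its strongest borders were 13, 36 and 13 bp apart, so they did not keep one distance.

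Some other high-scoring regions had borders near 30 bp apart in all 3 libraries, though none of the 10 stayed within 29 to 31 bp in each. The chromosome 11 region 11744530 to 11744740 scored 8.79, 11.77 and 15.20, ranked 40 of 4304 after prednisolone, and had borders 31, 32 and 30 bp apart. Its signal was 7.11, 8.81 and 16.3 RPM in WT, highest after prednisolone, with no GRdim border. C/EBPβ was not listed there at 6am and scored 2.64 and 2.69 in the other lists. The chromosome 15 region 75914727 to 75914940 had borders 28, 29 and 27 bp apart with 5.03, 4.69 and 7.52 RPM, no GRdim border, and C/EBPβ scores of 9.24, 9.47 and 7.94. A strong C/EBPβ peak was thus found with a similar spacing and no listed GRdim border. The chromosome 10 region 59432567 to 59432777 had the highest prednisolone score of all 546, 16.17, against 7.73 at 6am and 9.06 at 6pm. Its WT signal was 5.44, 5.29 and 18.1 RPM over borders 13, 11 and 11 bp apart, and GRdim listed 0.297 RPM at 6pm and 0.510 after prednisolone.

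Some regions had low scores in both untreated WT lists and high scores in the prednisolone list, which came from other mice. These were picked for the highest ratio of prednisolone to 6am GR score, so their scores are a description. The chromosome 7 region 119613517 to 119613732 ranked 5633 of 5781 at 6am with a score of 2.02, and 92 of 4304 after prednisolone with 12.50. Its WT border signal was 0.610, 0.974 and 9.14 RPM, over borders 31, 28 and 29 bp apart. C/EBPβ had a peak there in the prednisolone list (4.45) and in neither untreated list. The chromosome 4 region 6864390 to 6864596 scored 2.36, 3.40 and 13.21, gave 1.24, 1.37 and 10.1 RPM over borders 29, 31 and 30 bp apart, and had a C/EBPβ peak in the prednisolone list alone (4.56). On chromosome 4 as well, the region 11050866 to 11051085 went from 0.485 and 0.881 RPM to 6.18 RPM after prednisolone. No GRdim library listed a border at any of these 3.

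At the other end, the chromosome 2 region 4956487 to 4956714 scored 5.14 at 6am and 2.10 after prednisolone. Its WT signal was 0.826 RPM at 6am and 0.696 at 6pm, with no listed border after prednisolone. The chromosome 16 region 24254846 to 24255094 went from 6.47 and 8.26 to 2.78 in score and from 2.08 and 3.29 to 0.731 in RPM. Its C/EBPβ peak was listed at 6am and 6pm (2.57 and 2.86) and not after prednisolone.

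A few WT-only regions carried a clear GRdim border signal in spite of having no GRdim peak. The largest was on chromosome 11 (101303449 to 101303683), where GRdim gave 2.84, 1.62 and 1.50 RPM in the 3 conditions, in the order 6am, 6pm, prednisolone, and WT gave 2.73, 1.55 and 2.08. Both genotypes were thus near each other there, with up to 90 GRdim tags. The chromosome 19 region 44096130 to 44096345 gave 0.854, 0.411 and 0.576 RPM in GRdim and 0.305, 0.533 and 0.219 in WT, and held the highest 6am C/EBPβ score of the set, 15.83. On chromosome 7, the region 27766573 to 27766779 had WT borders 26 bp apart in all 3 libraries with 5.44, 5.38 and 5.39 RPM. GRdim gave 0.790, 0.821 and 0.221 RPM there, and no C/EBPβ list held a peak.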

How the data were processed

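The members and the lists of regions compared here were chosen with earlier results of these data known. Each ChIP-seq list holds 200 bp peaks with a score, as deposited; what unit this has was not given in the sources used here. Each ChIP-exo list holds 10 bp borders with a strand, tag counts and RPM, per the file headers. Per the submitters' processing notes, the build was mm9 and the tools included HOMER and Bowtie, with no role or version stated. Each list pools replicates, per the labels.

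Peaks overlapping by 1 bp were merged; a border or C/EBPβ peak counted when it overlapped a region; border pairs were taken within 100 bp of the WT centre. Merging, pairing and intervals were tested on simulated data with known answers. The border files list only borders above a minimum, so depth limits weak signals most in the GRdim 6am library.

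Regions were named by rule: the 10 with the highest of their lowest WT score, the 5 with most GRdim RPM, the 3 highest and 3 lowest ratios of prednisolone to 6am score, the 3 highest C/EBPβ prednisolone scores among those in no untreated C/EBPβ list, and 3 just inside and 3 just outside the rule; those described in the text were picked among these. An mm9 genome or annotation was not used here, so the planned motif and gene results were not run and positions carry no gene names or sequences. The 2 RNA polymerase II and 12 input samples were not analysed here. Values were computed in Python 3.11.15 with pandas 2.3.3 and numpy 2.4.6, and plotted with matplotlib 3.10.9.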

Additional observations from a re-analysis of the deposited data

How the results depend on the processing

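All settings were compared by value only, since each list is a pool. No paired analysis was possible because the replicate numbers belong to input samples not analysed here and every list pools its replicates. Leaving out a replicate could not be run for the same reason, and the planned motif and gene results were not run. Merging at 100 bp of overlap, or merging peaks up to 100 bp apart, left the number of WT-only regions within 1.5 times of 546. So did requiring no GRdim peak centred within 500 bp, or keeping the higher-scoring 50% of each list. Lists of equal length gave 336, with fewer peaks entering from every list but the shortest. Of 75 alternatives to differences from shared regions, 62 kept their direction and whether their interval excluded 0. Another 9 lost the exclusion of 0, 2 gained it and 2 reversed. Some of the 62 included 0 in the main setting and the alternative alike, as for pairs 24 to 26 bp apart at 6pm. Every alternative to the GRdim border and C/EBPβ differences kept its direction and its exclusion of 0. For WT borders the difference was -0.700 points (6am, border within 60 bp), -3.06 (prednisolone, both strands), 0, -0.591 and -0.611 (6am, 6pm, prednisolone, WT score of at least 4) and, with border lists of equal length, 5.39, -1.09 and 11.5 points, the first and last reversed. For pairs 24 to 26 bp apart it was -2.44 and -2.99 points at 6am and -3.87 and -3.01 after prednisolone, with at least 20 tags on each border and with a score of at least 4. For pairs 29 to 31 bp apart it was 0.891 points at 6pm when any pair counted, a setting chosen after seeing the data, like the 500 bp limit on differences and both RPM ratio settings. The cause of these changes was not tested.

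Of 63 alternatives to shares of WT-only regions, 27 left the main interval. Borders of both strands gave 93.8%, 84.1% and 85.2% in WT and 2.20%, 5.86% and 6.04% in GRdim. Border lists of equal length gave 82.4%, 74.0% and 80.6% in WT and 6.59% and 6.23% in GRdim 6pm and prednisolone, and a border within 60 bp gave 17.6% in GRdim prednisolone. Pairs 29 to 31 bp apart rose to 34.5% and 29.7% (6am, prednisolone) with 20 tags and to 32.4% and 32.5% with a score of 4; pairs 24 to 26 bp apart fell to 1.67% and 1.65% after prednisolone. In GRdim the share was 0 for pairs 24 to 26 bp apart at 6pm with 20 tags (1 pair left) and for pairs 29 to 31 bp apart after prednisolone with 20 tags (2 pairs) or a score of 4 (11 pairs). C/EBPβ shares were 48.7% and 49.3% (6am, prednisolone) with centres within 100 bp, 30.6%, 38.1% and 34.1% with the higher-scoring 50% of each list, and 55.9% at 6pm with lists of equal length. Adding up all listed borders gave median WT signals of 2.35 RPM at 6am, 2.92 at 6pm and 2.91 after prednisolone, against 1.18, 1.67 and 1.45, since more borders are summed.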

Other observations

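The WT-only regions were spread over all chromosomes. On the X chromosome they were 8 of the 19 regions of all 3 WT lists (42.1%, interval 23.1 to 63.7), where the autosomes had 12.4% to 21.4% and all chromosomes together 17.3%. The X value was singled out after the 20 chromosomes were seen. Close neighbours were counted in the WT-only set alone, so they cannot be called few or many: 22 of the 546 lay within 5 kb of another, as 11 pairs. One pair, on chromosome 1 (133814357 to 133818983), included the second-ranked region by lowest WT score, which scored 10.12, 13.74 and 11.93 at 6am, at 6pm and after prednisolone. That region had 4.42, 9.02 and 8.59 RPM in WT and 0.251 RPM in GRdim at 6pm, the only GRdim library with a border there.

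Among the 24 regions whose C/EBPβ peak was in the prednisolone list alone, the highest C/EBPβ score was 5.42, at the chromosome 16 region 15889823 to 15890049. GR scored 3.73, 6.80 and 10.55 there, with 1.45, 2.83 and 6.49 RPM in WT and no GRdim border. The chromosome 10 region 68567366 to 68567576 followed with a C/EBPβ score of 5.03 and GR borders 33, 58 and 32 bp apart.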
